A study of Mus musculus with 2 samples.

Results

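The complement components and regulators followed here were C1qa, C1qb, C1qc, C3, C4b, C3ar1, C5ar1, Cd55 and Cd59a, chosen by gene name from the 39098 gene symbols of the series, and 9 of 9 were found. The data came from single-cell RNA sequencing of right trigeminal ganglia (TG) of male C57BL/6 mice aged 5 to 8 weeks, taken 7 days after injection into the vibrissal pad. One library came from mice that received 20 μL of complete Freund's adjuvant (CFA), an emulsion of mineral oil and killed mycobacteria that causes local inflammation. The other was the control library, labelled as untreated, which the study's methods describe as saline injected. The ganglion was dissociated with papain, so the cells counted were those that survived dissociation, and the sources used here did not state how many of the 6 mice per group entered each library. The control library held 7298 cells and 48916096 unique molecular identifiers (UMIs, each standing for 1 captured transcript), and the CFA library held 4080 cells and 22096268 UMIs.

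Cells were assigned to 13 classes from raw UMIs of marker genes, none of which was a complement gene, and 5480 control cells (81.9% of those kept) and 2929 CFA cells (80.0%) were assigned. Cells in which the markers of a second class reached over 0.5 of the best class's level were set aside as mixed (700 control and 447 CFA cells). The classes used most were neurons (824 control and 416 CFA cells), myelinating Schwann cells (mSC, 1986 and 1110) and non-myelinating Schwann cells (nmSC, 365 and 158). Also used often were satellite glial cells (SGC, 1108 and 474), oligodendrocyte-like cells (OLC, 96 and 128), macrophages (204 and 165) and fibroblasts (452 and 206). Neurons carried a median of 43604 UMIs per cell in control and 36676 in CFA, against 2061 and 1688 in macrophages and 988 and 833.5 in nmSC. Among the classes named above the nmSC gate was the least sharp. Of its cells, 195 of 365 in control and 80 of 158 in CFA fell below doubled marker thresholds. So did 23 of 45 control and 9 of 9 CFA B cells, and 19 of 32 and 10 of 14 T and NK cells. The 2 libraries shared 27 cell barcodes. Levels are UMIs of a gene scaled to a class total of 1000000 UMIs (CPM) with exact Poisson 95% intervals, and differences are log2 ratios of CPM with exact conditional 95% intervals. With 1 library per condition there was no test between conditions, and every interval covers counting error only, not variation between animals or captures.

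Complement is a cascade of plasma proteins that tags cells and debris for removal and can end in a pore in the target membrane. The classical pathway starts when C1q, built from the products of C1qa, C1qb and C1qc, binds its target. The proteases it recruits then cleave C4 and C2, and the resulting convertase cleaves C3. Fragments of C3 and C5 act on receptors encoded by C3ar1 and C5ar1 on myeloid cells. Host cells limit the cascade with membrane proteins such as CD55, which speeds the decay of convertases, and CD59, which blocks the final pore. In nervous tissue C1q and C3 are also known for tagging synapses and debris for uptake by macrophages and microglia.

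The 3 C1q genes lay side by side on the minus strand of chromosome 4 (GRCm38, GENCODE M21), C1qb at chr4:136880129-136886187, C1qc at chr4:136889804-136893065 and C1qa at chr4:136895917-136898803, within 18675 bp. The RefSeq promoters of C1qb (chr4:136886151-136886450) and C1qc (chr4:136892865-136893164) are shown because these neighbouring genes shared 1 source class in both libraries. Both are on the minus strand of GRCm38.p6 and run from 250 bases before to 50 bases after the transcription start. Capitals mark GAGGAA, the core of the site bound by PU.1, a transcription factor of macrophages, or its reverse complement TTCCTC.
C1qb promoter: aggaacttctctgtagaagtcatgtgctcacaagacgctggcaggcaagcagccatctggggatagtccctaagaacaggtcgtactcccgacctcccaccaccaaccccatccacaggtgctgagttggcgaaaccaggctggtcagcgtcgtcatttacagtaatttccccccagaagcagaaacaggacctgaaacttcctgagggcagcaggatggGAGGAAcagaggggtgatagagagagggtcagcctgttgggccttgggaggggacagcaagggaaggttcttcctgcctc
C1qc promoter: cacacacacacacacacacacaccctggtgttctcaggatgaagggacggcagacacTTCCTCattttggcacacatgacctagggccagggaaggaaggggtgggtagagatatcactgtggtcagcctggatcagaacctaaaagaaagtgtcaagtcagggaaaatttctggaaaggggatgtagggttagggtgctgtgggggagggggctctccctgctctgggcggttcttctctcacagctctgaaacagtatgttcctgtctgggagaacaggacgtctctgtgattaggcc
The core lay 30 bases before the start of C1qb and 193 bases before that of C1qc. Among the 7 of 9 members with a promoter in the table, 3 held it on either strand, the third being Cd59a at 62 bases before the start. It was present in 28.3% of all 32851 promoters of the same length, and a match describes the letters only.

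C1q transcripts came almost wholly from macrophages in both libraries. Of the 2752 UMIs of the 3 chains in assigned control cells, 2587 were in macrophages, a share of 94.0% (95% Clopper-Pearson interval 93.1 to 94.9). In CFA the share was 97.7% (97.0 to 98.3), 2104 of 2154 UMIs. Summed over the chains, control macrophages held 5543 CPM (5331 to 5761) and CFA macrophages 6808 CPM (6521 to 7106), against 3.14 and 2.39 CPM in neurons. Neutrophils and monocytes, T and NK cells and B cells had no C1q UMI in either library, but these classes held at most 45 cells, which allows up to 43.8 CPM in control neutrophils and monocytes and up to 386 CPM in CFA B cells.

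Any C1q UMI was seen in 85.3% of control and 90.9% of CFA macrophages, and 138 and 119 of them carried all 3 chains. With every cell thinned to 500 UMIs the shares were 77.9% and 86.7%, against 0.243% and 0.240% in neurons. No macrophage was left out by the thinning. Unthinned, 10.1% of control and 6.73% of CFA neurons carried a C1q UMI, at the far greater median depths given above, and this share was read as background. In control the 121 C1q UMIs of neurons split into 16.5% C1qa, 47.9% C1qb and 35.5% C1qc, next to 20.5%, 41.5% and 38.0% in macrophages. In CFA the 40 UMIs of neurons split into 7.5%, 75% and 17.5%, next to 25.2%, 42.6% and 32.2% in macrophages. The CFA split of neurons was thus unlike that of macrophages, and the origin of these UMIs was not tested.

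The 3 chains did not differ equally between the libraries. C1qa, the A chain, was at 1138 CPM in control macrophages and 1715 CPM in CFA macrophages, a log2 ratio of 0.59 (0.42 to 0.77). C1qb was at 2301 and 2899 CPM (log2 ratio 0.33, 0.20 to 0.46). C1qc was at 2104 and 2194 CPM, and its interval (-0.08 to 0.20 around 0.06) included 0. The A chain therefore made up 20.5% of C1q UMIs in control and 25.2% in CFA macrophages, while the C chain made up 38.0% and 32.2%.

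**Figure D1:**
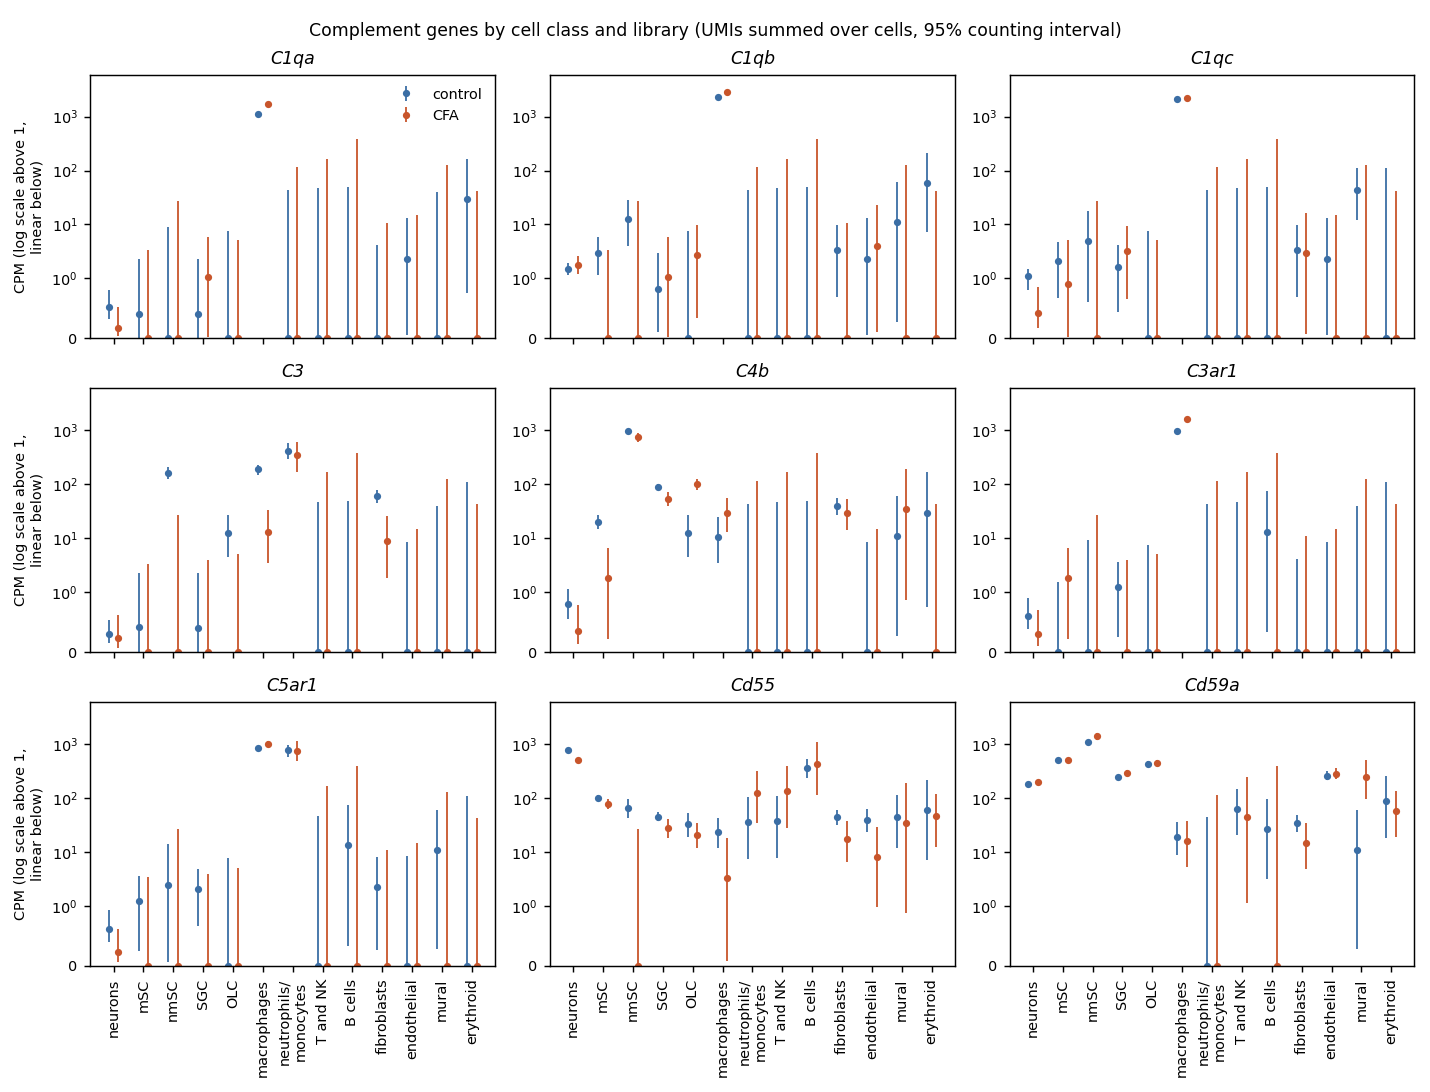
Level of each complement gene (CPM, log scale above 1 and linear below) in the 13 cell classes, with control in blue and CFA in orange, points for UMIs summed over the cells of a class and bars for 95% counting intervals. The C1q chains and C3ar1 stand out in macrophages, C4b in nmSC (969 and 742 CPM) and Cd59a in nmSC (1076 and 1383 CPM), while Cd55 is highest in neurons (764 and 517 CPM). In CFA, Cd55 of neurons does not differ from that of B cells (418 CPM, 4 UMIs) beyond the counting interval.

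Among macrophages, C1q was found in cells with and without markers of resident perivascular or tissue macrophages. Cells with at least 2 UMIs of Mrc1 and Pf4 together (93 control, 67 CFA) held 1479 and 1911 CPM of C1qa. Cells with Cx3cr1 but without that much Mrc1 or Pf4 (42 and 63 cells) held 1160 and 1838 CPM of C1qa. Both groups thus showed more C1qa in the CFA library, but in these 2 groups the other chains did not follow. C1qc of the Mrc1 or Pf4 cells was lower in CFA, at 2723 CPM (2494 to 2967) and 2165 CPM (1915 to 2437). Their C1qb levels (2765 and 2934 CPM) had overlapping intervals. So did C1qb (2948 and 3265 CPM) and C1qc (2498 and 2652 CPM) of the Cx3cr1 cells. The remaining macrophages (69 and 35 cells) held less C1qa, 736 CPM in control and 1098 CPM in CFA. Their C1qb was higher in CFA, at 1365 CPM (1194 to 1553) and 2149 CPM (1804 to 2540). Their C1qc levels (1151 and 1396 CPM) had overlapping intervals. Across the 26 class-by-library profiles, the genes most like C1qa among 10684 genes were C1qb (Pearson r of log2(CPM + 1) 0.93), Il1a (0.93) and Mrc1 (0.91). Mrc1 was itself a macrophage gate marker, and the profiles share libraries and the same gate.

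Receptors for the C3 and C5 fragments were also found in macrophages, and whether single cells held them together with C1q was not tested. C3ar1 (chr6:122847138-122856161, minus strand) encodes the C3a receptor, and 94.4% of its UMIs in control and 98.6% in CFA were in macrophages. Its level was 971 CPM in control and 1641 CPM in CFA macrophages, a log2 ratio of 0.76 (0.57 to 0.94), and the median cell held 795 and 1497 CPM. C3ar1 was detected in 66.7% of control and 82.4% of CFA macrophages, or 34.3% and 50.3% after thinning to 500 UMIs. In neutrophils and monocytes no C3ar1 UMI was seen in 37 control and 20 CFA cells, which allows up to 43.8 and 115 CPM.

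C5ar1 (chr7:16246743-16259540, minus strand), the C5a receptor, was shared between 2 myeloid classes. Macrophages held 848 CPM in control and 1013 CPM in CFA (log2 ratio 0.26, 0.04 to 0.47), and neutrophils and monocytes held 760 and 750 CPM. Macrophages, the more numerous class, held 79.7% and 91.8% of all C5ar1 UMIs. In neurons both receptors were under 1 CPM in each library.

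Of the 6 members with at least 50 UMIs in macrophages, 2 (C1qa and C3ar1) were more than 1.5-fold higher in CFA, where 11.6% of all 2854 genes so measured were, and 1 (C3) was more than 1.5-fold lower, where 14.3% were. The median log2 ratio was 0.29 over the 6 members and -0.00 over all genes. Over the 13 complement genes measured in macrophages, the wider list included, Itgam joined the higher genes and Cfp and Itgax joined the lower ones. Itgam encodes the alpha chain of complement receptor 3, and its level was 231 CPM in control and 443 CPM in CFA macrophages.

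The macrophage difference ran beside a set of cells rich in interferon-induced transcripts. A cell was called interferon-high with at least 5 UMIs, and at least 30 per 10000, of 10 genes such as Gbp2, Gbp3 and Iigp1. These cells were 12.7% of control macrophages (26 cells) and 1.21% of CFA macrophages (2 cells). The 26 control cells held 512 CPM of C1qa, 71.5 CPM of C3ar1 and 59.6 CPM of C5ar1, against 1275, 1168 and 1021 CPM in the other 178. They also held more Ly6c2 (2884 against 251 CPM) and Plac8 (2455 against 355 CPM), markers of monocytes, and less Mrc1 (131 against 839 CPM). With interferon-high cells left out of both libraries, the CFA over control log2 ratio was 0.49 for C3ar1, 0.43 for C1qa and -0.01 for C5ar1. With those cells kept, the 3 ratios were 0.76, 0.59 and 0.26. The source of the differences that remained without them was not tested.

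C3 (chr17:57203970-57228136, minus strand), the component on which the pathways converge, was scarce, with 261 UMIs in assigned control cells and 22 in CFA cells. Per class it was highest in neutrophils and monocytes, at 416 CPM (35 UMIs) in control and 344 CPM (11 UMIs) in CFA, and the log2 ratio of -0.27 had an interval (-1.40 to 0.74) that included 0. Control macrophages held 189 CPM (88 UMIs) and CFA macrophages 12.9 CPM (4 UMIs), a log2 ratio of -3.86 (-5.77 to -2.46). Control fibroblasts held 59.4 CPM (53 UMIs) and CFA fibroblasts 8.79 CPM (3 UMIs, log2 ratio -2.76, -5.08 to -1.13). C3 was the 1 member measured in fibroblasts at 50 UMIs, and 10.2% of all fibroblast genes were as far past 1.5-fold lower and 9.97% higher.

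In nmSC, C3 was at 161 CPM (65 UMIs in 22 of 365 cells) in control and was not detected in 158 CFA cells. A floor of 3 UMIs in the CFA class lay 7.38-fold below the control level, and the interval of the log2 ratio had an upper limit of -2.54. Cells of the macrophage gate, nmSC and fibroblasts together held most control C3, with 33.7%, 24.9% and 20.3% of its UMIs. Neurons had 12 C3 UMIs in 824 control cells and 4 in 416 CFA cells, none more than 1 per cell.

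The C3 of control macrophages was concentrated in the interferon-high cells, which held 68 of its 88 UMIs in 18 of 26 cells. As given above, these 26 cells were also richer in the monocyte markers Ly6c2 and Plac8 and poorer in Mrc1. Their level of C3 was 810 CPM against 52.2 CPM in the other macrophages, a log2 ratio of 3.96 (3.22 to 4.75). Without interferon-high cells C3 was still lower in CFA macrophages, at 13.1 against 52.2 CPM, but by a log2 ratio of -1.99. In nmSC the 65 C3 UMIs were spread over both kinds of cell, 179 CPM in interferon-high and 143 CPM in other cells, and the interval of that ratio included 0.

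C4b (chr17:34728380-34743882, minus strand), the component cleaved after C1q binding, came mainly from glia. The class with the second most C4b UMIs was SGC in control (29.7%, against 0.81% in OLC) and OLC in CFA (28.5%, against 20.2% in SGC). The near-identical C4a gene had 29 UMIs in all, and reads shared by the 2 genes could have been counted under either. In nmSC, the control level of C4b was 969 CPM (875 to 1070) and the CFA level 742 CPM (605 to 901), a log2 ratio of -0.38 (-0.71 to -0.07). C4b was detected in 52.9% of control and 43.0% of CFA nmSC, or 32.6% and 25.3% after thinning to 500 UMIs. This class held 53.1% of C4b UMIs in control and 40.3% in CFA, shares that depended on the gate, at 40.7% and 29.9% with doubled marker thresholds and 7.09% and 0% in cells with at least 2000 UMIs. C4b was among the 10 genes that led the nmSC class although it had no part in the gate. In macrophages C4b was at 10.7 and 29.1 CPM, and in neurons at 0.80 and 0.36 CPM.

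SGC held lower levels of C4b than nmSC, at 90.0 CPM (219 UMIs) in control and 54.0 CPM (51 UMIs) in CFA. This log2 ratio of -0.74 (-1.20 to -0.29) became -1.38 when only cells with at least 300 genes and at most 10% mitochondrial UMIs were kept. It was -0.21 in 1 random thinning to 500 UMIs. In another draw, 3.98% (2.91 to 5.31) of control and 2.12% (1.02 to 3.86) of CFA SGC had a C4b UMI. In mSC, C4b was at 19.9 CPM (48 UMIs) in control and 1.83 CPM (2 UMIs in 1110 cells) in CFA. Fibroblasts held 39.2 CPM in control and 29.3 CPM in CFA. OLC went the other way, from 12.4 CPM (6 UMIs in 5 of 96 cells) in control to 99.5 CPM (72 UMIs in 36 of 128 cells) in CFA, a log2 ratio of 3.01 (1.82 to 4.50). A single CFA cell held 15 of those 72 UMIs, and with the richest cell of each library left out the log2 ratio was 3.26. The SGC marker Fabp7 was at 45.3 and 13.8 CPM in OLC. All SGC gate markers together went the other way, at a median of 11 UMIs per OLC in control and 16 in CFA. Median depths of OLC were 4908.5 and 5355.5 UMIs. The part of other cells in the C4b difference was not tested.

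In the control library, C4b also followed the interferon-high cells in some glial classes. These cells were 22.8% of control and 6.96% of CFA SGC. Interferon-high control SGC held 228 CPM of C4b and other control SGC 39.3 CPM, a log2 ratio of 2.53 (2.12 to 2.97). In control mSC the levels were 92.5 and 7.75 CPM. In control nmSC, 45.5% of cells were interferon-high. C4b was at 1067 CPM in those and 872 CPM in the others, and the interval of the log2 ratio of 0.29 included 0. In CFA SGC the levels were 86.9 CPM (6 UMIs) and 51.4 CPM, and the interval of the log2 ratio of 0.76 included 0. That of CFA nmSC (772 and 732 CPM) also included 0. CFA mSC held 2 C4b UMIs, none in the 30 interferon-high cells. Without interferon-high cells the SGC difference turned, with C4b at 39.3 CPM in control and 51.4 CPM in CFA (log2 ratio 0.39). For nmSC the log2 ratio without these cells was -0.25, but the counting intervals of the levels, 872 CPM for control and 732 CPM for CFA, overlapped.

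**Figure D2:**
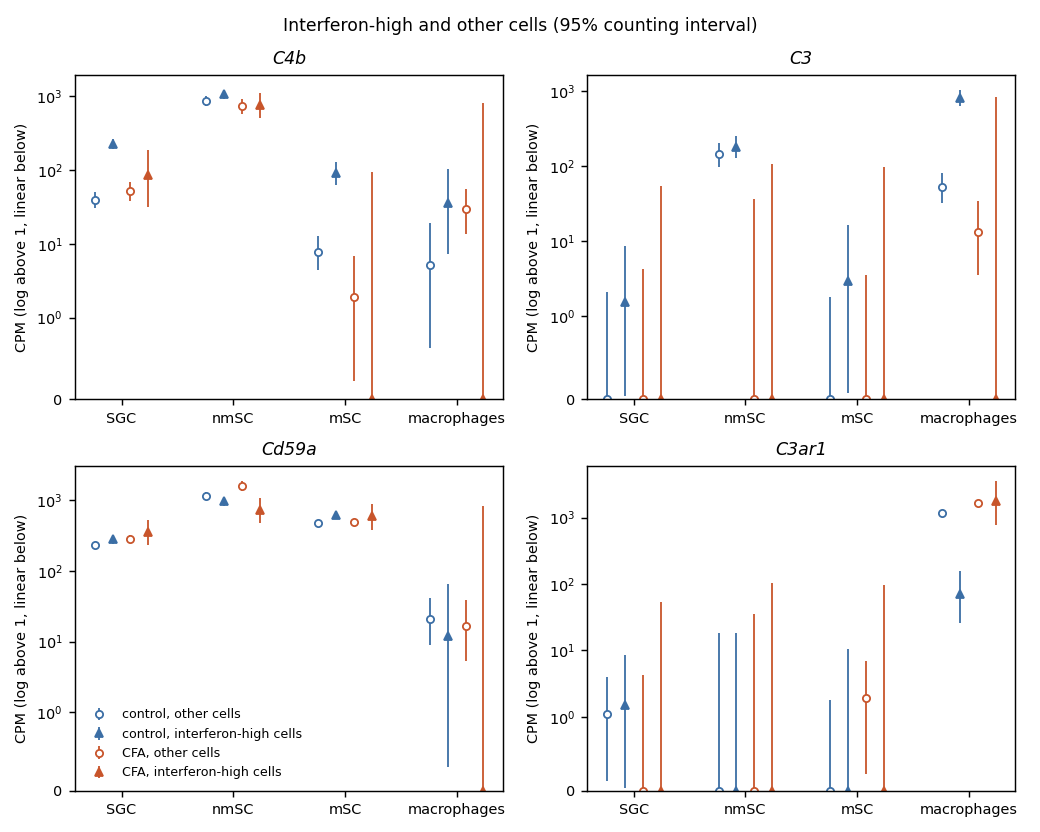
Levels (CPM, log scale above 1 and linear below) of C4b, C3, Cd59a and C3ar1 in interferon-high cells (filled triangles) and other cells (open circles) of 4 classes, with control in blue, CFA in orange and bars for 95% counting intervals. C4b of control SGC (228 against 39.3 CPM) and C3 of control macrophages (810 against 52.2 CPM) are higher in interferon-high cells, and C3ar1 of control macrophages is lower (71.5 against 1168 CPM).

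Of the 3 members with at least 50 UMIs in SGC, 2 (C4b and Cd55) were more than 1.5-fold lower in CFA and none was as far higher, where 7.03% and 8.55% of all SGC genes were. Cd55 of SGC is set beside other neuronal transcripts counted there below. Without interferon-high cells, the C4b levels of SGC in the 2 libraries (39.3 and 51.4 CPM) had overlapping intervals. In nmSC 1 of 3 members (C3) was more than 1.5-fold lower and none higher, where 15.3% and 10.9% of all genes were. Among 10684 genes over the 26 profiles, those most like C4b were Creb5 (r 0.82), Matn4 (0.81) and Insc (0.81).

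Cd55 (chr1:130439027-130462744, minus strand), the decay-accelerating factor, was a gene of non-peptidergic neurons. Neurons held 98.3% of its UMIs in both libraries. They also held most UMIs of all assigned cells, 38521721 of 46410434 in control and 16727083 of 20702704 in CFA. NP1 neurons, gated on Mrgprd (161 control, 61 CFA), held 1944 CPM (1918 to 1971) in the control library, while their CFA level was 1571 CPM (1532 to 1611). NP2 neurons, gated on Mrgpra3, Mrgprx1 and Mrgprb4 (46 and 12), held 1329 and 1326 CPM. Another class, gated on Sst, Nppb and Il31ra (15 and 12), held 427 and 235 CPM. Below them came C-fibre low-threshold mechanoreceptors (cLTMR, 68 and 39) with 162 and 150 CPM, the 3 peptidergic (PEP) classes with 66.6 to 125 CPM, neurofilament-rich (NF) neurons (27 and 11) with 102 and 107 CPM, and Trpm8 neurons (46 and 24) with 33.2 and 27.5 CPM.

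The order of the leading 4 classes was the same in both libraries, and each differed from the next beyond its counting interval. NP1 exceeded NP2 by 1.46-fold in control and 1.19-fold in CFA, and NP2 exceeded the Sst/Nppb class by 3.12-fold and 5.63-fold. Among the lower classes, peptidergic Sstr2-positive and Sstr2-negative neurons, and PEP Nefh-positive and NF neurons, did not differ beyond their intervals in control. NP1 held 72.0% and NP2 16.4% of neuronal Cd55 in control, and 70.6% and 11.7% in CFA. Single neurons largely separated in the same way. At least 500 CPM of Cd55 was reached by 157 of 161 control NP1 neurons and 45 of 46 control NP2 neurons. None of the 124 Sstr2-positive and 207 Sstr2-negative control peptidergic neurons reached it. In CFA the counts were 58 of 61, 12 of 12, 0 of 73 and 1 of 111. This level was also reached by 4 of 15 Sst/Nppb, 3 of 67 PEP Nefh-positive and 1 of 27 NF control neurons. Of control neurons in no class, 31 of 63 reached it. For these 4 groups the CFA counts were 0 of 12, 0 of 42, 1 of 11 and 5 of 31.

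Between the libraries Cd55 differed in NP1 neurons, by a log2 ratio of -0.31 (-0.35 to -0.27). The quartiles over single NP1 neurons were all lower in CFA, at 1649, 1961 and 2245 CPM in control and 1289, 1651 and 1927 CPM in CFA. NP2 neurons showed a log2 ratio of -0.00 (-0.10 to 0.09). The Sst/Nppb class was lower in CFA (log2 ratio -0.86, -1.16 to -0.56), as were PEP Nefh-positive neurons (103 and 66.6 CPM, -0.63, -1.003 to -0.27). Sstr2-positive peptidergic neurons differed by -0.26 (-0.48 to -0.05), and the intervals of the cLTMR, Sstr2-negative peptidergic, NF and Trpm8 classes included 0.

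Pooled over all neurons, Cd55 was at 764 CPM in control and 517 CPM in CFA. NP1 and NP2 neurons were a smaller part of the CFA library's neurons, 61 and 12 of 416 against 161 and 46 of 824, and the pooled log2 ratio of -0.57 lay farther from 0 than that of NP1 itself. With the 9 neuron classes given equal weights it was -0.23. Of the 4 members with at least 50 UMIs in neurons, 1 was more than 1.5-fold lower in CFA and none higher, where 4.72% and 4.49% of all 14498 neuronal genes were. That member was C1qc, at 1.12 and 0.42 CPM (43 and 7 UMIs). The origin of these UMIs was not tested.

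**Figure D3:**
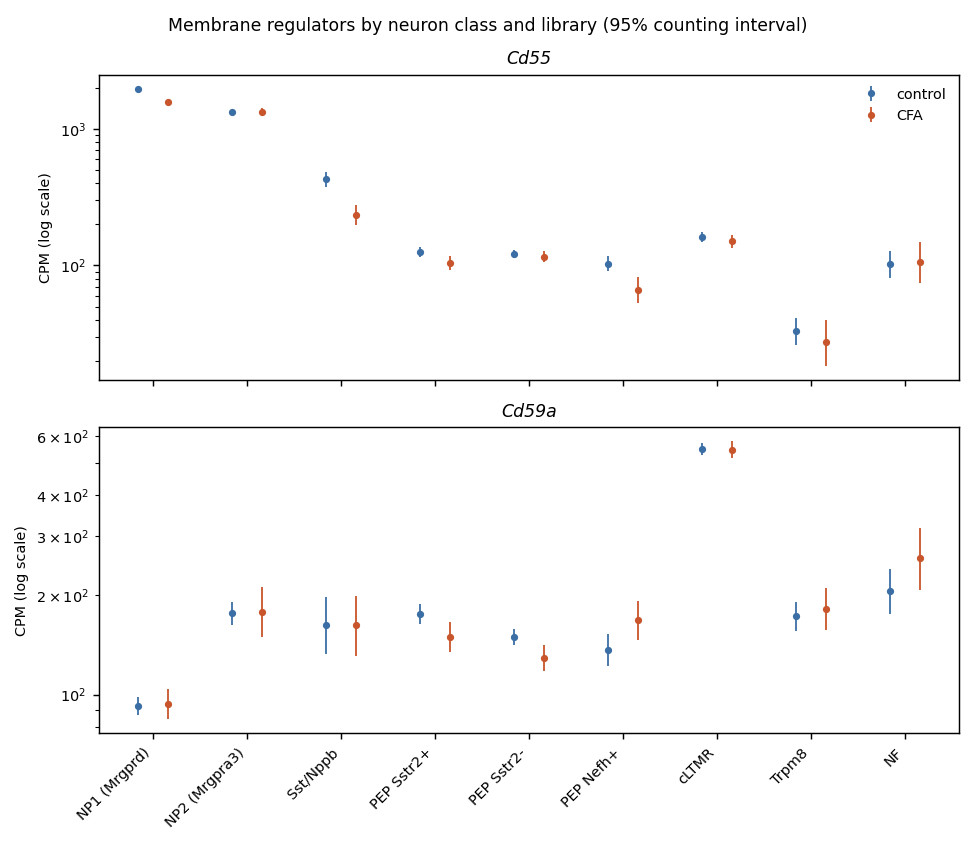
Levels (CPM, log scale) of Cd55 and Cd59a in 9 neuron classes gated on raw marker UMIs, with control in blue, CFA in orange and bars for 95% counting intervals. Cd55 is highest in NP1 (1944 and 1571 CPM) and NP2 (1329 and 1326 CPM) and lower in the other 7 classes, while Cd59a is highest in cLTMR (548 and 546 CPM) and lowest in NP1 (92.6 and 93.8 CPM).

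Outside neurons, Cd55 was read against other neuronal transcripts counted in the same classes. Whether these came from free RNA, doublets or attached cell fragments was not tested. The neuronal transcripts Calca, Stmn2, Nefl and Gap43 were at 4.40% to 5.11% of their neuronal level in control mSC and at 1.78% to 2.94% in CFA mSC. In SGC they were at 3.77% to 4.95% and 1.93% to 9.86%. Cd55 of SGC (45.2 and 27.5 CPM) was at 5.91% and 5.33% of its neuronal level. This was above the range in control, and in CFA only Gap43 was at a higher percentage. Of these transcripts, Calca was at 4.57% in control and 2.15% in CFA SGC, Stmn2 at 3.77% and 1.93%, and Gap43 at 4.95% and 9.86%. In nmSC, Cd55 was at 64.4 CPM (26 UMIs) in control, 8.43% of its neuronal level against 3.28% to 6.04% for the 4 transcripts. It was not detected in 158 CFA nmSC. A floor of 3 UMIs there lay 2.95-fold below the control level, and the interval of the log2 ratio had an upper limit of -1.16. Cd55 of mSC lay above the range, at 99.6 CPM (13.0%) in control and 77.7 CPM (15.04%) in CFA. B cells held 359 CPM (27 UMIs in 45 cells) in control and 418 CPM (4 UMIs in 9 cells) in CFA. The paralog Cd55b had 5 UMIs in all.

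Cd59a (chr2:104095801-104115354, plus strand), the inhibitor of the terminal pore, had a wider distribution. Its highest level was in nmSC, where control cells held 1076 CPM (977 to 1182) and CFA cells 1383 CPM (1193 to 1594), a log2 ratio of 0.36 (0.11 to 0.61). In mSC it was at 501 CPM in both libraries, with a log2 ratio of 0.00 (-0.15 to 0.15). OLC held 424 and 453 CPM, endothelial cells 260 and 284 CPM, and SGC 246 and 291 CPM (log2 ratio 0.24, 0.03 to 0.45). Macrophages, the source of C1q, held 19.3 CPM (9 UMIs) in control and 16.2 CPM (5 UMIs) in CFA, and fibroblasts held 34.7 and 14.6 CPM, the lowest levels of the larger classes. Because neurons are far richer in RNA, they held 72.9% and 69.4% of all Cd59a UMIs at only 182 and 194 CPM, and with every cell weighted equally that share was 7.51% and 7.13%.

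Among neurons the cLTMR class stood apart for Cd59a, at 548 CPM in control and 546 CPM in CFA, 2.67-fold and 2.12-fold over the next class (NF, 205 and 257 CPM). The quartiles over single cLTMR neurons were 482, 559 and 642 CPM in control and 495, 542 and 625 CPM in CFA. NP1 neurons, the highest for Cd55, were the lowest for Cd59a at 92.6 and 93.8 CPM, below the next class by 1.47-fold and 1.37-fold. From NF down to PEP Nefh-positive neurons no neighbouring classes of the control library differed beyond their intervals. The cLTMR and NP1 levels differed between libraries by log2 ratios of -0.00 (-0.11 to 0.10) and 0.02 (-0.16 to 0.19). Cd59a was lower in CFA in Sstr2-positive (175 and 149 CPM) and Sstr2-negative peptidergic neurons (149 and 129 CPM), and higher in PEP Nefh-positive neurons (136 and 168 CPM), of which 61 of 67 and 32 of 42 cells lay near the gate's limits. After a random thinning of neurons to 5000 UMIs the ratio turned in the last 2 of these classes, to log2 values of 0.015 and -0.38. In another draw the share of cells with a Cd59a UMI kept the unthinned direction, at 54.7% and 46.2% of Sstr2-negative and 33.9% and 51.2% of PEP Nefh-positive neurons. Whether the 2 readouts part because of the draw was not tested.

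Over the 18 neuron class-by-library profiles and 9389 genes, the genes most like Cd55 were Ankrd13b (r 0.95), Hsd17b11 (0.94) and Plxnc1 (0.94). Those most like Cd59a were C1ql4 (0.91), Cd34 (0.90) and Ano6 (0.90). The profiles of 1 library share their depth and any free RNA.

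**Figure D4:**
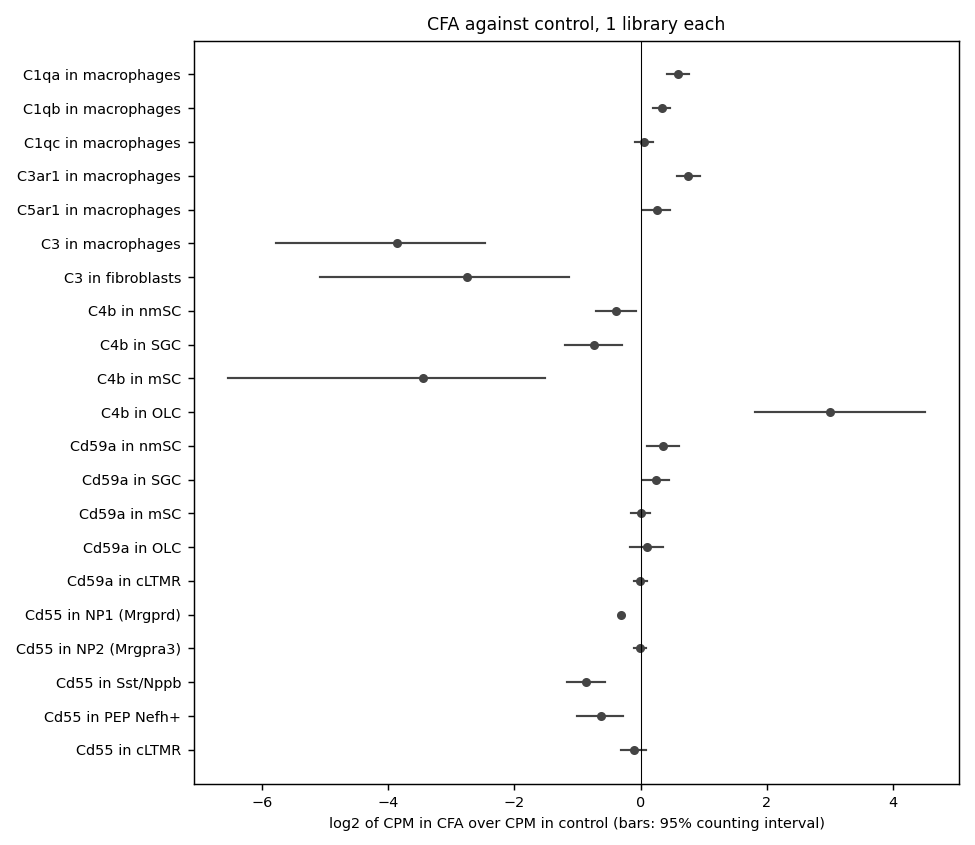
Log2 ratio of CPM in CFA over control for members in their main classes (x axis, 1 library each), with points for the ratio and bars for 95% counting intervals. C1qa and C3ar1 of macrophages lie above 0, C3 of macrophages and fibroblasts and C4b of mSC, SGC and nmSC below 0, and C4b of OLC at 3.01.

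Of the 42 other complement genes listed by role, 41 were analysed and 21 had at least 50 UMIs. By role these were 4 of 12 initiation genes, 1 of 2 alternative pathway genes, 1 of 7 terminal genes, 4 of 6 soluble regulators, 6 of 7 membrane regulators and 5 of 7 receptors. The terminal components were thus nearly unseen, and the 1 terminal gene, C8g, had 66 UMIs. Among the 13 classes with at least 10 UMIs of the gene, both libraries pooled, fibroblasts were highest for 4 of the 21 (C1ra, C1s1, C2 and Serping1), the proteases that follow C1q and their inhibitor. Serping1, the C1 inhibitor, was at 3011 CPM in control and 2150 CPM in CFA fibroblasts (log2 ratio -0.49, -0.61 to -0.37). C1s1 was at 411 and 296 CPM and C1ra at 208 and 193 CPM there. C1ra and C1s1 have near-identical copies, C1rb and C1s2, with 1 and 7 UMIs.

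Fluid-phase regulators had other sources. Vtn, vitronectin, was at 831 CPM in control and 2421 CPM in CFA mural cells (59 and 20 cells). Cfp, properdin, and the receptor chains Itgam and Itgb2 were highest in neutrophils and monocytes. Itgb2 was at 559 CPM in control and 434 CPM in CFA macrophages. Endothelial cells were highest among the 13 classes for Clu (264 and 154 CPM), Cr1l, Susd4 and Cd93, although single neuron classes held more Clu (NF neurons, 428 and 518 CPM) and more Susd4. The Cd59a paralog Cd59b was low, at 14.4 and 19.4 CPM in OLC, its highest class.

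**Figure D5:**
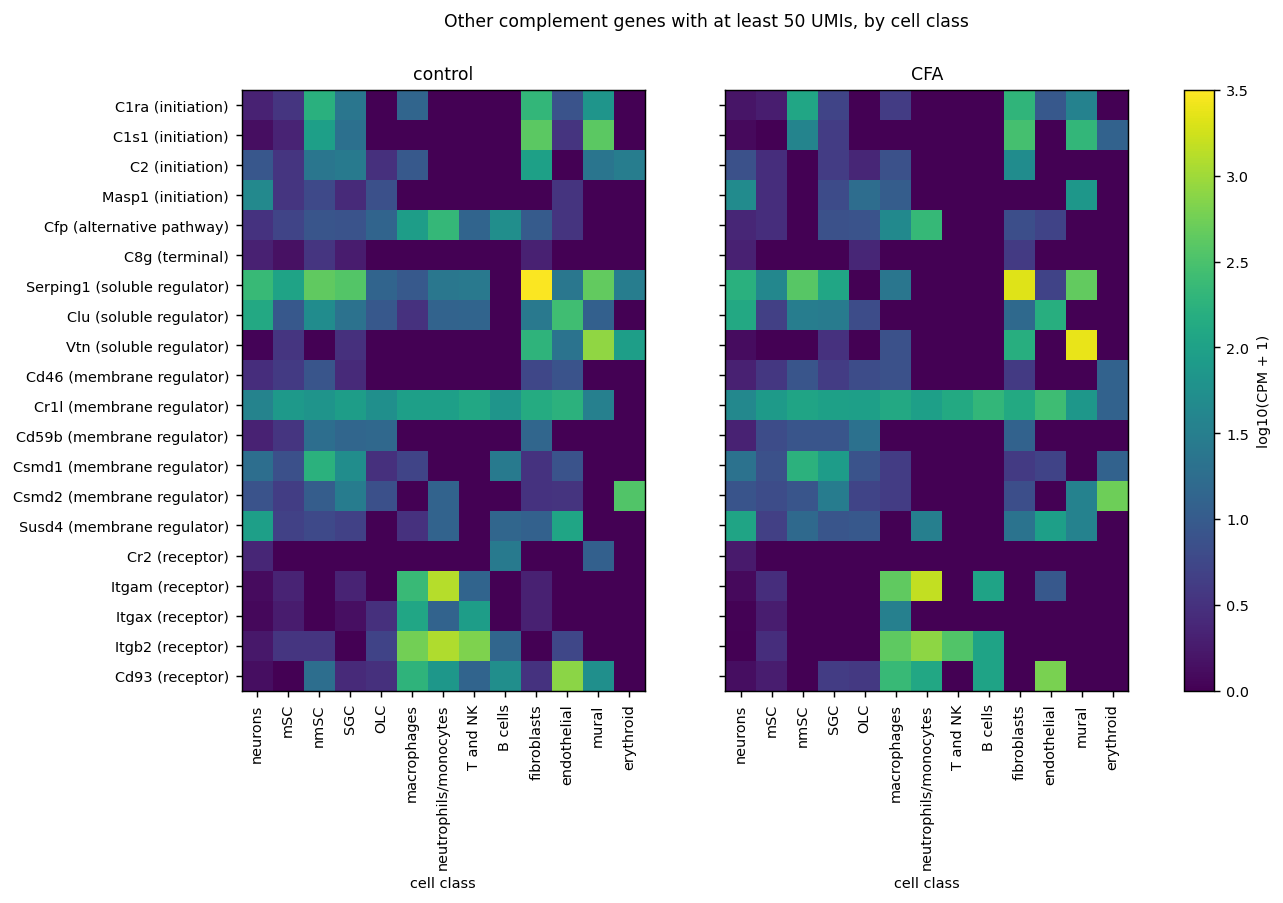
Level, as log10(CPM + 1), of 20 other complement genes with at least 50 UMIs (y axis, role in brackets) in the 13 cell classes (x axis) of the control library (left) and the CFA library (right). Serping1 is brightest in fibroblasts (3011 and 2150 CPM), Vtn in mural cells, Itgam and Itgb2 in neutrophils and monocytes, and Cr1l is seen in most classes.

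Neuron classes also differed in soluble complement genes. Serping1 was at 606 CPM in control and 574 CPM in CFA NP1 neurons, the class with most Cd55, and at 207 and 113 CPM in NP2 neurons. In cLTMR it was at 18.2 and 4.39 CPM. Masp1, a lectin pathway protease, was instead a gene of peptidergic neurons, at 139 and 130 CPM in the Sstr2-positive and 89.5 and 95.7 CPM in the Sstr2-negative class, against 0.92 and 1.29 CPM in NP1. Susd4, a membrane-bound inhibitor, was highest in Trpm8 neurons, at 296 and 306 CPM, the class with least Cd55.

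Of the 10 complement genes measured in SGC at 50 UMIs, 5 were more than 1.5-fold lower in CFA (C1ra, C2, C4b, Cd55 and Serping1) and 1 was as far higher (Csmd1), where 7.03% of all SGC genes were lower and 8.55% higher. Of the 5, Cd55 was at 5.91% and 5.33% of its neuronal level in SGC, above the range of the other neuronal transcripts in control. Of those transcripts, Calca was itself at 251 CPM in control and 103 CPM in CFA SGC, and Gap43 at 41.1 and 91.1 CPM. The part of neuronal RNA in the Cd55 difference was not tested. The median log2 ratio of the 10 genes was -0.36, next to 0.04 over all SGC genes. Serping1 of SGC was at 364 CPM in control and 118 CPM in CFA. Within control SGC it was at 1124 CPM in interferon-high and 84.3 CPM in other cells. Within CFA SGC it was at 145 CPM (10 UMIs) and 115 CPM, and the interval of that ratio included 0. C2 of SGC was at 25.5 CPM (62 UMIs) in control and 3.18 CPM (3 UMIs) in CFA. In control SGC, 53 of those 62 C2 UMIs were in interferon-high cells. Outside interferon-high cells, Serping1 was at 84.3 CPM in control and 115 CPM in CFA SGC, and C4b at 39.3 and 51.4 CPM. There C2 was at 5.06 CPM (9 UMIs) and 3.43 CPM (3 UMIs), and C1ra at 2.81 CPM (5 UMIs) and 2.29 CPM (2 UMIs). Cd55 of these cells was at 43.8 and 25.1 CPM.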

How the data were processed

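The authors deposited 1 table per library of raw UMI counts per gene and cell, made from BD Rhapsody whole transcriptome libraries. The submitters' processing notes name fastp and GRCm38. The counter and annotation are not given in the sources used here. From these counts, cells with at least 150 genes and at most 25% mitochondrial UMIs were kept (6695 control, 3661 CFA). No doublet caller was run. A cell took the class whose marker UMIs, relative to the 100 cells richest in those markers, were highest, with at least 5 marker UMIs (30 for neurons) from at least 2 markers. Macrophage markers were Csf1r, Cd68, Adgre1, Mrc1, Cx3cr1, Aif1, Ctss, Pf4 and Tyrobp, nmSC markers Scn7a, Cdh19, L1cam, Ngfr, Sox10 and Chl1, and SGC markers included Fabp7, Kcnj10, Ednrb, Ptprz1 and Glul. Neuron classes were gated on raw UMIs of their markers, and neurons passing 2 gates or none stayed ungrouped (63 control, 31 CFA). UMIs were summed per class and library, and no test was run because each condition had 1 library.

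The named genes were the 9 members, a list of 42 other complement genes by role whatever their values, and the 3 genes most like each of 4 members among genes with at least 500 UMIs. Some listed genes and markers are not reported here. Members and lists were chosen with earlier results of these data known. Alternatives were stricter or looser filters, doubled gates, purer cells (second class at most 0.2 of the best), cells with at least 2000 UMIs, equal cell weights, no mitochondrial genes, median centring, thinning (5000 UMIs for neurons, 500 for others), no interferon-high cells in glia and neurons, equal neuron class weights and a minimum of 100 UMIs. Leaving out the richest cell, and leaving interferon-high cells out of macrophages and fibroblasts, were added after seeing the data. The calculations used Python 3.11.15, numpy 2.4.6, scipy 1.17.1 and pandas 2.3.3. The log2 ratio intervals were tested on simulated Poisson counts, and the gating, thinning and likeness steps were not.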

Additional observations from a re-analysis of the deposited data

Results flagged for a closer look

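Complement genes with at least 50 UMIs in a class over both libraries, whose counting interval excluded 0 in opposite directions in different classes, were singled out, and these differences between classes were not tested. Cd59a was higher in CFA over all neurons (log2 ratio 0.093), in nmSC (0.36), in SGC (0.24) and in PEP Nefh-positive neurons (0.30), and lower in Sstr2-positive (-0.24) and Sstr2-negative peptidergic neurons (-0.21). Below that minimum, mural cells held 1 Cd59a UMI in control and 7 in CFA (log2 ratio 4.47, 1.51 to 9.96). Class proportions differed in the pooled neurons, where NP1, lowest in Cd59a, made up 161 of 824 control and 61 of 416 CFA cells. Neurons in no class held 153 and 310 CPM, and the part of these in the pooled ratio was not tested. C4b was lower in CFA in mSC (-3.44), nmSC (-0.38) and SGC (-0.74), and higher in OLC (3.01).

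C1q transcripts were also found in cells that no comparison used. Mixed cells held 191 CPM of the 3 chains in control and 51.2 CPM in CFA, with all 3 chains in 9 and 3 cells. Cells with too few marker UMIs for any class held 111 and 81.7 CPM. These levels lay far below those of macrophages.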

How the results depend on the processing

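Of 821 recalculations of 98 values, 699 were classed as the same, 118 as moved and 4 as reversed. For values with a counting interval, the same meant within it and moved meant beyond it. The 4 reversed ones changed sign, and all were among the 23 CFA over control ratios whose interval excluded 0. This count does not cover sign changes of ratios whose interval included 0. For C1q in macrophages the CFA over control log2 ratio was 0.30, 0.15 in purer cells, 0.39 in cells with at least 2000 UMIs and 0.16 without interferon-high cells. C3ar1 in macrophages was at 0.49 without those cells, and C5ar1 at -0.0097. C4b in SGC was at -1.38 under the strict cell filter, -0.21 in thinned cells and 0.39 without interferon-high cells. Cd55 over all neurons was at -0.49 in purer cells, -0.68 with equal cell weights, -0.60 in thinned cells and -0.23 with equal class weights, and Cd55 in NP1 was at -0.27 with equal cell weights and -0.25 in thinned cells. In thinned cells Cd59a was at 0.015 in Sstr2-negative peptidergic and -0.38 in PEP Nefh-positive neurons, each thinned value being 1 random draw. The macrophage share of C1q UMIs was 92.8% (control) and 96.3% (CFA) in cells with at least 2000 UMIs, and 97.2% and 99.2% with equal cell weights. The nmSC share of C4b in control and CFA was 40.7% and 29.9% with doubled gates, 47.7% and 32.4% in purer cells, 7.09% and 0% in cells with at least 2000 UMIs, and 70.9% and 64.3% with equal cell weights, and the control share was 57.8% under the strict filter. The cause of these shifts was not tested, except that the 2000 UMI limit removes most nmSC. No paired analysis was possible because each condition had 1 library without a replicate number, and for the same reason no library could be left out. Depth limits C3 in CFA (22 UMIs) and C4b outside nmSC, SGC and OLC.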

Other observations

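Csmd2, a membrane-bound complement inhibitor best known from brain, was highest in erythroid cells, a class gated on haemoglobin genes, at 357 CPM (12 UMIs in 9 of 26 cells) in control and 527 CPM (46 UMIs in 34 of 65 cells) in CFA. Its pooled neuronal level was 6.88 and 7.17 CPM. Vtn in mural cells, at 831 and 2421 CPM, rests on 59 and 20 cells.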
